A study of Mus musculus with 37 samples.

Results

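The early proximal tubule of the mouse kidney at embryonic day E15.5 was represented by 2 Affymetrix arrays, and its transcripts were set against the unweighted mean of the 5 other components sampled on that day. The 2 arrays are those whose tissue is labelled early proximal tubule, out of 20 arrays from E15.5 and 37 in the whole series. The comparison side held 4 S-shaped bodies, 4 renal corpuscles, 3 ureteric tips, 3 medullary collecting ducts and 4 samples of medullary interstitium, together 18 arrays. A further 17 arrays came from earlier components, namely 5 renal vesicles at E12.5 and 8 metanephric mesenchymes and 4 ureteric buds at E11.5. All animals were wild-type embryos of the outbred CD-1 strain with unknown sex. For E15.5, tissue was cut from frozen sections by laser capture microdissection, with about 50 sections of 5 kidneys pooled for 1 sample, and the RNA went through 2 rounds of amplification. Nothing in the labels says whether the pools of 1 component share kidneys, so p-values measure a spread between samples. This spread was estimated over all 37 arrays, the earlier components included, and not from the E15.5 pools alone.

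The proximal tubule is the first segment of the nephron after the glomerulus. In the mature kidney it takes back most of the filtered salt, water, glucose, amino acids and phosphate, and it secretes organic anions and cations into the urine. Its cells carry a brush border of microvilli, take up filtered proteins by endocytosis through megalin and cubilin, and burn fatty acids for energy. In development it arises from the S-shaped body, whose distal-most part forms the connection to the ureteric tip and whose proximal end forms the renal corpuscle. HNF4A is a known regulator of proximal tubule genes.

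A level here is a quantile-normalized log2 signal of 1 probe set per gene, on a scale whose lowest value was 5.11, and a difference is a log2 difference, so that 1 is a doubling. Genes were called where limma, fitted over 15709 genes, gave an adjusted p under 0.05 and a difference of 1 or more, and "rose" and "fell" are used of called genes. Before normalization the median signal was 182 and 204 in the 2 proximal tubule arrays, and 167 to 334 in the 18 other E15.5 arrays. Of 16 listed marker genes of the proximal tubule, 14 were measured. Of these, 13 were called higher in proximal tubule, and for 12 both arrays lay above all 18 others. The exception among the 14 was Gatm, a creatine synthesis enzyme, with levels of 10.26 and 7.33 in proximal tubule and 5.60 to 10.22 (median 7.46) in the others. Each array carried the markers of its label, with 13 of 14 called higher in array 1 alone and 12 of 14 in array 2 alone.

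Some arrays stood apart from the rest. The correlation between the 2 proximal tubule arrays across the 15709 genes was 0.791, while 24 replicate pairs of the other 5 components ranged from 0.734 to 0.954 and 1 of them was lower than 0.791. That pair holds renal corpuscle 4, and the lowest of the 21 pairs without this array was 0.803. Across genes, array 1 was nearest to array 2, but array 2 was nearer to ureteric tip 3 (0.836), S-shaped body 2 (0.831) and medullary collecting duct 1 (0.827) than to array 1. The titles of ureteric tip 3, S-shaped body 2 and the next nearest, medullary interstitium 1 (0.822), carry the same code as array 2. That of medullary collecting duct 1 does not. The labels do not give the meaning of the code, and its part in this likeness was not tested. The array labelled S-shaped body 3 was nearest to a renal corpuscle, and the array labelled renal corpuscle 4 was nearest to an S-shaped body. Podocyte genes averaged a level of 13.83 in the array labelled S-shaped body 3 and 11.37 to 11.79 in the other 3 S-shaped bodies. With both of these arrays left out, 1625 genes were called higher in proximal tubule and 1158 lower, against 1436 and 955 with them.

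Proximal tubule differed from the mean of the 5 other components in 1436 genes called higher (9.14% of all tested) and 955 called lower (6.08%). Both arrays lay above all 18 others for 906 genes (5.77%), of which 770 were called higher. Both lay below all 18 for 399 genes (2.54%), of which 318 were called lower. The median difference over all genes was 0.11, and 60.1% of calls were rises. When arrays were only scaled to a common median, the median of all genes moved to 0.30 and 75.7% of calls were rises, 1990 genes against 638 that fell. The filter on low signal was passed by 26 genes through the proximal tubule arrays alone. All 26 were called higher, and a gene that passes in this way has to be higher there.

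**Figure D1:**
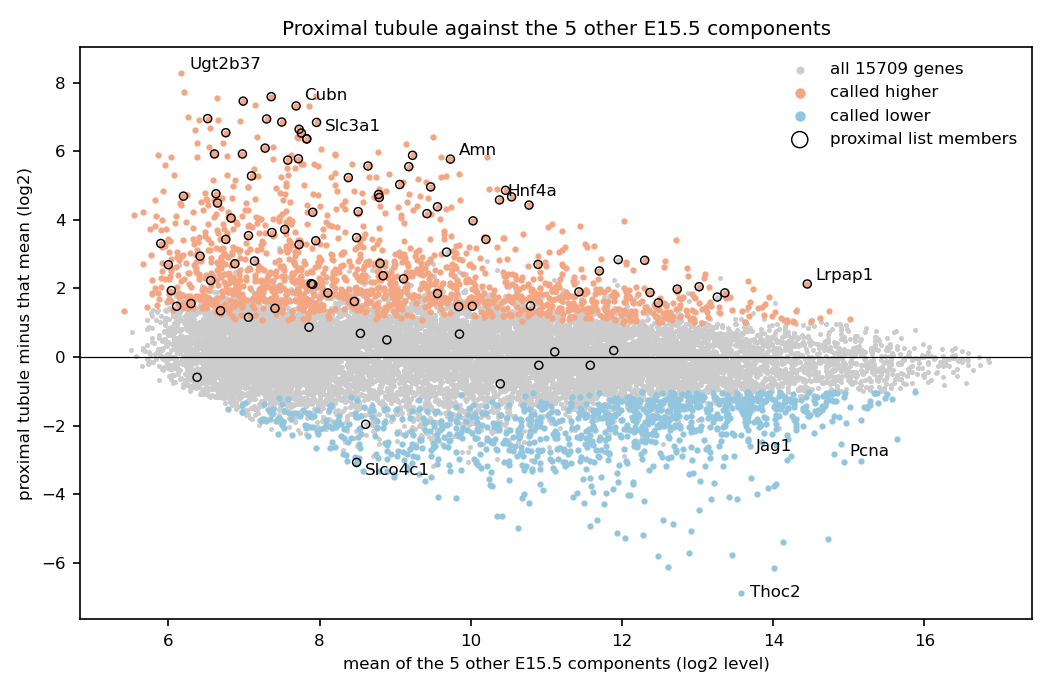
Each point is 1 of 15709 genes, with the mean level of the 5 other E15.5 components on the x axis (log2) and proximal tubule minus that mean on the y axis (log2). Orange points rose (1436), blue points fell (955) and black circles mark the 96 measured members of the proximal tubule lists, most of which lie far above 0.

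The 15 largest rises without overlap between the groups had genes of varied roles, and several are described here. Ugt2b37, a UDP-glucuronosyltransferase that conjugates lipophilic compounds, had levels of 14.84 and 14.05 in proximal tubule and 5.22 to 7.95 (median 5.75) in the 18 others. The groups did not overlap, and the difference of 8.28 (SE 0.58, adjusted p = 4.13e-12) was the largest in the comparison. Slc22a19, an organic anion transporter of the mouse kidney, had 14.30 and 13.61 in proximal tubule against 5.24 to 13.30 (median 5.51), a difference of 7.74 (SE 0.98, adjusted p = 5.21e-07). Its upper end among the others came close to proximal tubule in 1 array, an S-shaped body, although the median was near the floor of the scale. Cyp2d26, a cytochrome P450, had 13.99 and 14.37 in proximal tubule against 5.28 to 12.09 (median 5.76), a difference of 7.54 (SE 0.90). Apom, which encodes a lipoprotein component, had 16.10 and 15.05 in proximal tubule against 5.50 to 12.80 (median 7.68), a difference of 7.62 (SE 1.00). Bhmt2, a methyltransferase of methionine metabolism, rose by 6.87 (SE 0.88) and Spp2, a secreted phosphoprotein, by 7.31 (SE 0.89). Vwce, which encodes a secreted protein with von Willebrand factor C and EGF domains, had 13.27 and 13.85 in proximal tubule against 5.27 to 8.62 (median 6.44), a difference of 6.90 (SE 0.71). For all of these genes both proximal tubule arrays lay above every other E15.5 array.

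Among the regulators of the segment, Hnf4a, Vdr, Nr1h4 and Esrra rose. Of 14 listed nuclear factors, 10 were measured and 4 rose, with a median difference of 1.32 over the 10 against 0.11 over all genes. Either array without the other gave 3 calls. Hnf4a had levels of 15.14 and 14.78 in proximal tubule and 8.30 to 13.53 (median 10.15) in the others, and rose by 4.58 (SE 0.91, adjusted p = 0.000426). Both arrays stood above the whole range of the others, and the mean of the S-shaped bodies (12.55) was the next highest. Vdr, the vitamin D receptor, had 10.98 and 11.03 in proximal tubule against 5.65 to 9.70 (median 7.48) and rose by 3.63 (SE 0.66, adjusted p = 0.000146). Nr1h4, the bile acid receptor FXR, had 12.83 and 9.95 in proximal tubule against 5.33 to 9.18 (median 6.59) and rose by 4.76 (SE 0.58), with array 1 well above array 2. Esrra, an estrogen-related receptor that drives mitochondrial genes, rose by 1.47 (SE 0.42, adjusted p = 0.0126). Maf, a bZIP factor, had 12.86 and 12.62 in proximal tubule against 6.27 to 12.54, yet its difference of 3.06 (SE 1.16) missed the threshold at an adjusted p of 0.0674. Ppara, Ppargc1a, Ppargc1b, Esrrg and Rxra, receptors and coactivators of oxidative metabolism, had differences between -1.96 and 1.16 and none was called.

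Promoters of 2 genes that rose, a subunit of the cystine carrier and a brush border protocadherin, are shown because each holds a short motif of HNF4, and they were chosen for that. The sequences are RefSeq's on build GRCm38.p6, the 250 bases before the annotated start of the gene, printed 5′ to 3′ on the strand of the gene. Capitals mark a match to the HNF4 core CAAAGTC, extended to CAAAGTCCA where these letters follow. Slc3a1 (chr17:85028097-85028346, plus strand) holds these letters 39 bases before its start. Cdhr2 (chr13:54701213-54701462, plus strand) holds the core 20 bases before.
Slc3a1: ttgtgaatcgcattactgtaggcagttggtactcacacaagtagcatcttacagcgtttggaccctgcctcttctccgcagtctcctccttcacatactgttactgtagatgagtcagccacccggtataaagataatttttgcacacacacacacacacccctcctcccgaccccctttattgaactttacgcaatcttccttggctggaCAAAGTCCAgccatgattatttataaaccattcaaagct
Cdhr2: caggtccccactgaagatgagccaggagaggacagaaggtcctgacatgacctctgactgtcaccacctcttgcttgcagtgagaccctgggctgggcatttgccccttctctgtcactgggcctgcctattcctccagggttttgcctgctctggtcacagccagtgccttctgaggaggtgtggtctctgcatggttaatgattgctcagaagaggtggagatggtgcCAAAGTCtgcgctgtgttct

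Searched on both strands in windows from 250 bases before to 50 after a start, CAAAGTC was present in 10 of 114 windows (8.77%) of the proximal tubule list members that matched RefSeq, 81 of 96 genes. Among the windows of all measured genes it was present in 660 of 15944 (4.14%). The promoters of the 430 genes that rose against every other component held it in 26 of 424 windows (6.13%). Genes that fell held it in 34 of 983 windows (3.46%). These are matches of letters and describe no binding, and several windows can belong to 1 gene.

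The regulators and the genes of protein uptake, reabsorption, secretion and the brush border formed 7 lists with 107 symbols in all, of which 96 were measured and 11 were not analysed here. Of the 96, 74 (77.1%) rose and none fell, with a median difference of 3.29. Over all genes 9.14% rose and 6.08% fell, and the counts of each single list stand beside these shares. For 55 of the 96 both arrays lay above all 18 others, beside 5.77% of all genes. Their mean level was 12.59 in array 1 and 11.68 in array 2, while the 18 others spanned 8.20 to 10.65 and none of the 17 earlier arrays was above 8.50. The highest of the 18 was the array labelled S-shaped body 3. Among the 74, the genes Pck1, Treh and Abcc2 passed the filter through the proximal tubule arrays alone.

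**Figure D2:**
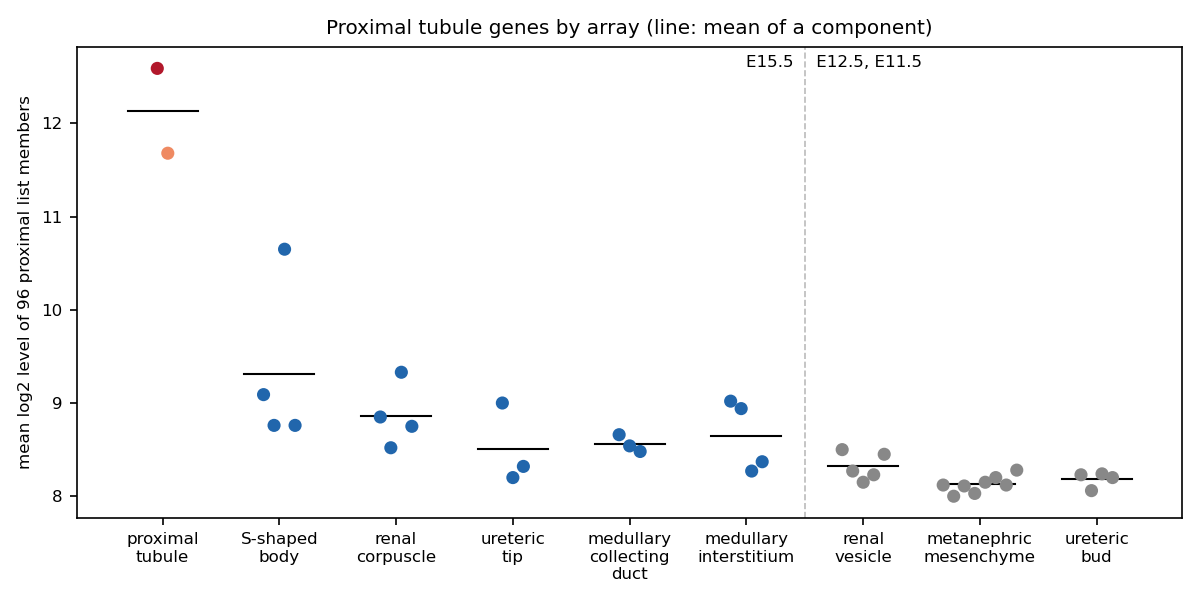
Mean log2 level of the 96 measured members of the proximal tubule lists in each of the 37 arrays, with 1 point per array and a line at the mean of each component. The 2 proximal tubule points (12.59 and 11.68) lie above all others, of which the highest is 10.65.

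The receptors of protein endocytosis were high in both arrays. Of 7 measured genes of the group, 6 rose, with a median difference of 2.70, and without array 2 there were 6 calls and without array 1 there were 4. Cubn, the vitamin B12 and albumin receptor cubilin, had levels of 15.59 and 14.43 in proximal tubule and 5.30 to 13.70 (median 7.50) in the others, a difference of 7.32 (SE 1.07, adjusted p = 5.79e-06). Amn, the partner that brings cubilin to the membrane, had 15.38 and 15.62 in proximal tubule against 7.09 to 12.48 (median 9.63), a difference of 5.77 (SE 0.88, adjusted p = 1.09e-05). Neither gene overlapped between the groups. Lrp2, which encodes megalin, had 15.31 and 12.57 in proximal tubule against 7.13 to 13.97 (median 9.80), so that array 2 lay within the others. Its difference was 4.38 (SE 0.88) for both arrays, and with array 2 alone it was 3.01 with an adjusted p of 0.106. Dab2, an adaptor of megalin, rose by 2.70 (SE 0.68) and Lrpap1, a chaperone of the receptors, by 2.13 (SE 0.46). Ocrl, a phosphatase of the endocytic path, had a difference of 0.67 and was not called.

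Carriers of sodium, phosphate, bicarbonate and water rose in 16 of 17 measured cases, with a median difference of 4.22. Without array 2 again 16 were called, and without array 1 there were 12. Slc34a1, the main phosphate carrier of the brush border, had levels of 14.16 and 14.02 in proximal tubule and 6.99 to 12.82 (median 8.86) in the others, a difference of 5.03 (SE 0.76, adjusted p = 9.74e-06). Slc13a3, a dicarboxylate carrier, had 13.30 and 11.45 in proximal tubule against 5.84 to 8.94 (median 7.09), a difference of 5.28 (SE 0.56, adjusted p = 2.35e-08). Both groups were apart for these genes. Slc4a4, the basolateral bicarbonate carrier, rose by 3.43 (SE 0.73) and Slc9a3, the sodium-proton exchanger of the apical membrane, by 3.39 (SE 0.66), both higher in array 1 than in array 2. Aqp1, the water channel, rose by 4.22 (SE 0.71), Car4, a membrane carbonic anhydrase, by 4.18 (SE 0.66) and Fxyd2, the gamma subunit of the sodium pump, by 5.55 (SE 0.69). The member of the list without a call was Slc5a12, a lactate carrier, with 10.40 in array 1 and 5.55 in array 2 against 5.18 to 10.06 in the others.

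All 10 measured genes of glucose transport and gluconeogenesis rose, with a median difference of 3.64, and 9 were called without array 2 and 7 without array 1. Slc5a2, the apical glucose carrier SGLT2, had levels of 13.39 and 12.11 in proximal tubule and 7.14 to 10.88 (median 8.26) in the others, a difference of 4.24 (SE 0.53, adjusted p = 4.85e-07). Slc5a1, the carrier SGLT1, had 14.49 and 13.88 in proximal tubule against 5.55 to 12.01 (median 7.56), a difference of 6.36 (SE 0.79, adjusted p = 3.97e-07). Both carriers of the apical membrane thus stood clear of the other 18 arrays. Slc2a2, the basolateral exit carrier GLUT2, had 14.78 and 13.64 in proximal tubule against 5.49 to 12.65 (median 8.81) and rose by 5.57 (SE 0.99). The enzymes of glucose synthesis moved the same way. Fbp1, fructose bisphosphatase, rose by 6.64 (SE 1.04), Pcx, pyruvate carboxylase, by 3.97 (SE 0.47) and G6pc, the last step of glucose release, by 2.94 (SE 0.53). Pck1, the rate-setting enzyme of the path, had 10.50 and 7.91 in proximal tubule against 5.25 to 7.71, with array 2 just above the others. Pck1 passed the filter through the proximal tubule arrays alone, so that it had to be higher there.

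Amino acid and peptide carriers rose in 13 of 19 cases, with a median difference of 3.48. Without array 2 there were 12 calls and without array 1 there were 10. Slc3a1, the heavy chain of the cystine carrier, had levels of 15.40 and 14.20 in proximal tubule and 6.64 to 11.27 (median 7.77) in the others, a difference of 6.84 (SE 0.70, adjusted p = 1.44e-08). Its partner Slc7a9 had 15.48 and 13.39 in proximal tubule against 6.78 to 14.16 and rose by 4.96 (SE 0.98), with array 2 inside the range of the others. Slc6a18, a glycine carrier, rose by 5.78 (SE 0.71) and Slc6a20b, of the imino acid carrier family, by 5.92 (SE 0.64). Cltrn, the partner that brings such carriers to the brush border, rose by 4.74 (SE 0.82). Slc6a19, the main carrier of neutral amino acids in the adult segment, had 7.24 and 10.24 in proximal tubule against 7.04 to 8.93, a difference of 0.87 (SE 0.48) that was not called, with array 2 above all 18 others and array 1 among them. The amino acid carriers Slc6a20a, Slc16a10, Slc36a1, Slc43a2 and Slc6a6 were not called either, with differences of 0.15 to 1.49.

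Among carriers of organic ions, 9 of 15 rose and the median difference was 2.37. The count was 9 without array 2 and 7 without array 1. Slc22a6, the basolateral anion carrier OAT1, had levels of 14.28 and 14.10 in proximal tubule and 5.81 to 10.92 in the others, a difference of 6.36 (SE 0.71, adjusted p = 5.41e-08). Slc22a2, the cation carrier OCT2, had 14.91 and 14.00 in proximal tubule against 5.42 to 12.10 (median 6.34), a difference of 7.46 (SE 0.88, adjusted p = 1.81e-07). Slc22a12, the urate carrier URAT1, rose by 4.65 (SE 0.64) and Slc47a1, the apical cation exporter MATE1, by 4.86 (SE 0.90). Abcc2 also rose, but it passed the filter through the proximal tubule arrays alone. Several members were not high. Slco4c1, an organic anion carrier, had 5.23 and 5.62 in proximal tubule against 5.20 to 13.53, and its difference of -3.07 (SE 1.12) missed the threshold at an adjusted p of 0.0554. The ureteric tips, with a mean of 13.07, held its highest levels. Slco1a1, an organic anion carrier of the adult male kidney, lay near the floor of the scale at 5.60 and 5.97 in proximal tubule and 5.54 to 7.42 in the others.

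Genes of the brush border rose in 16 of 18 cases, with a median difference of 2.83. It was 13 genes without array 2 and 10 without array 1. Cdhr2, a protocadherin that links microvillus tips, had levels of 13.62 and 13.34 in proximal tubule and 5.23 to 9.95 (median 5.90) in the others, a difference of 6.95 (SE 0.90, adjusted p = 7.59e-07). Vil1, the actin bundler villin, had 13.57 and 13.16 in proximal tubule against 5.42 to 11.59 (median 6.98) and rose by 6.09 (SE 0.83). Cdhr5 and Myo7b, which act with Cdhr2 at the microvillus tip, rose by 3.28 (SE 0.74) and 4.05 (SE 0.54). Treh also rose, but it passed the filter through the proximal tubule arrays alone. Peptidases of the membrane are also on the list. Mep1b, the meprin beta subunit, had 15.20 and 14.70 in proximal tubule against 5.36 to 14.20 (median 6.10), a difference of 7.59 (SE 1.28, adjusted p = 5.34e-05). Dpp4 and Enpep, which are also peptidases, had differences of 2.84 (SE 1.06, adjusted p = 0.0615) and 1.75 (SE 0.63, adjusted p = 0.0542), and neither was called.

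**Figure D3:**
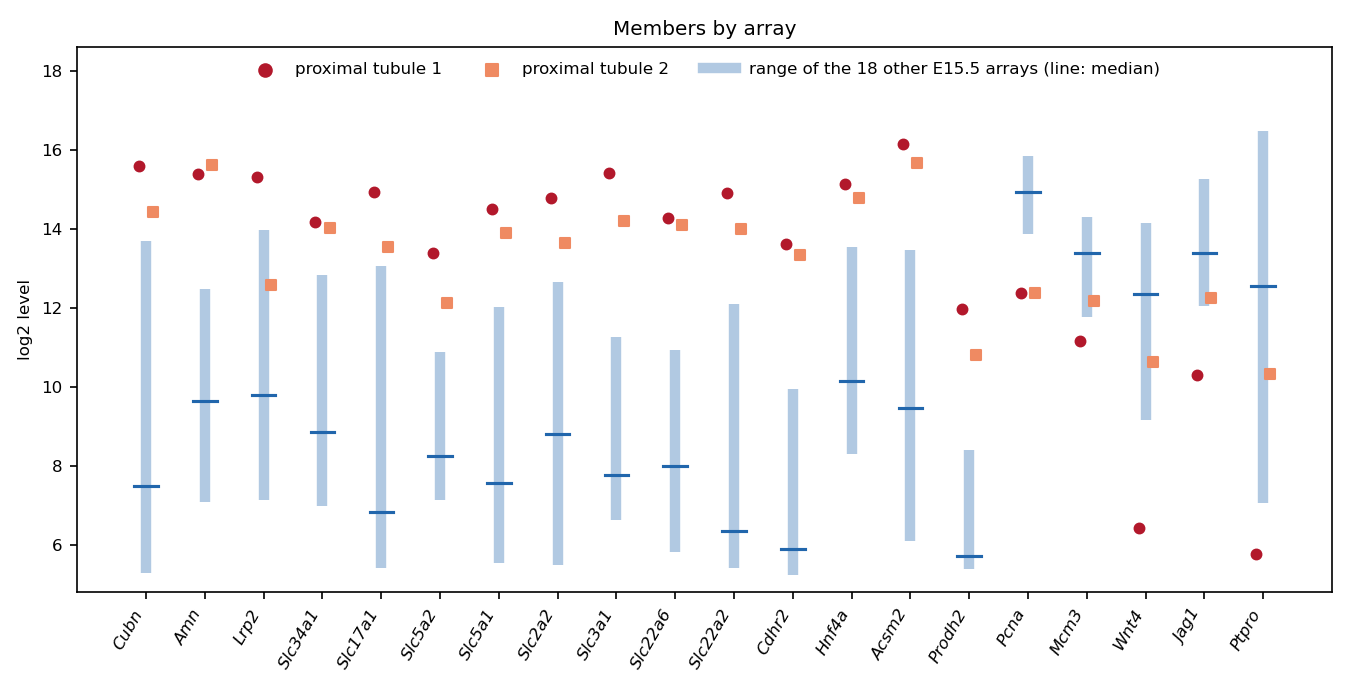
Log2 levels of 20 genes in proximal tubule array 1 (dark red circles) and array 2 (orange squares), beside the range of the 18 other E15.5 arrays (blue bars, with a line at the median). From the left, 15 genes of reabsorption, regulation and metabolism lie at the top, and Lrp2 is the only one of these with array 2 inside the bar; on the right, Pcna lies below its bar in both arrays.

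Metabolic genes were split by path. Of 27 measured genes of fatty acid oxidation and the peroxisome, 12 rose, with a median difference of 1.05, and 11 were called without array 2 and 5 without array 1. Acsm2, a medium-chain acyl-CoA synthetase, had levels of 16.15 and 15.67 in proximal tubule and 6.10 to 13.46 (median 9.47) in the others, a difference of 6.41 (SE 1.12, adjusted p = 8.83e-05). Hao2, a peroxisomal oxidase, rose by 6.41 (SE 1.08), Slc27a2, a fatty acid carrier, by 6.20 (SE 1.34) and Acaa1b, a peroxisomal thiolase, by 4.91 (SE 0.94). The mitochondrial dehydrogenases Acadm and Acadvl rose less, by 1.30 (SE 0.43) and 1.28 (SE 0.44). Cpt1a, the gate of mitochondrial fatty acid entry, had a difference of 0.79 (SE 0.50) and was not called. Amino acid and small molecule metabolism had 17 of 24 genes that rose, with a median of 3.05, and 15 without array 2 and 13 without array 1. Prodh2, a hydroxyproline dehydrogenase, had 11.98 and 10.81 in proximal tubule against 5.39 to 8.41 (median 5.73), a difference of 5.32 (SE 0.50, adjusted p = 3.12e-09). Dmgdh, of choline breakdown, rose by 5.84 (SE 0.76) and Aadat, of tryptophan and lysine breakdown, by 5.56 (SE 0.85). Miox and Dpys of this list passed the filter through the proximal tubule arrays alone.

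Genes that act on xenobiotics and lipid-soluble compounds rose in 12 of 20 cases, with a median difference of 2.55, and were higher in array 1 by a median of 1.53. Hepatocyte and plasma protein genes were higher in the same array by a median of 5.77, and their part in this excess was not tested. Without array 2 there were 12 calls, and 7 without array 1. Fmo1, a flavin monooxygenase, had levels of 14.73 and 13.11 in proximal tubule and 7.44 to 13.50 in the others, a difference of 4.74 (SE 0.81). Cyp27b1, which activates vitamin D, had 9.15 and 8.15 in proximal tubule against 5.35 to 8.33 and rose by 2.08 (SE 0.58, adjusted p = 0.0112). Calls in the respiratory chain and glycolysis stand beside 9.14% of all genes that rose and 6.08% that fell. Of 20 measured subunits of oxidative phosphorylation, only Atp5g1 was called, with a difference of 1.29 (SE 0.36). The median over the 20 was 0.53 against 0.11 for all genes. For 4 of the 20 both arrays lay above all 18 others, beside 5.77% of all genes. The mean level of this list was 14.89 and 14.71 in proximal tubule, and 14.13 to 14.67 in the others. Of 14 genes of hypoxia and glycolysis none was called, and the median difference was 0.10.

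Of 15 measured genes of epithelial junctions and polarity, 4 were called higher and none lower, with a median difference of 0.07 against 0.11 over all genes. Cldn2, the cation and water pore of the proximal tubule, had levels of 14.69 and 14.34 in proximal tubule and 6.27 to 14.17 (median 9.82) in the others, a difference of 5.11 (SE 0.83, adjusted p = 3.12e-05). Cldn10, which includes an anion pore of the segment, had 14.11 and 11.52 in proximal tubule against 5.75 to 9.88 (median 7.72), a difference of 5.01 (SE 0.55, adjusted p = 4.94e-08). Cldn6, a claudin of embryonic epithelia, rose by 2.44 (SE 0.77) and Cgn, the junction protein cingulin, by 1.53 (SE 0.54). Cdh1 and Epcam, general epithelial markers, had differences of -0.18 and -0.50 and were not called.

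The lower genes included markers of the cell cycle and of earlier nephron stages. Of 17 measured cell cycle genes 4 fell and none rose, beside 6.08% and 9.14% of all genes. The median difference over the 17 was -0.88. Pcna, the replication clamp, had levels of 12.38 and 12.37 in proximal tubule and 13.86 to 15.83 (median 14.92) in the others, a difference of -2.52 (SE 0.29, adjusted p = 1.23e-07). Both arrays lay below all 18 others and also below the 17 earlier arrays, which spanned 14.55 to 16.13. Mcm3, a subunit of the replicative helicase, had 11.17 and 12.17 in proximal tubule against 11.77 to 14.31 and fell by 1.71 (SE 0.48). Cdk1, the mitotic kinase, fell by 1.37 (SE 0.46) and Mki67, a proliferation marker, by 1.01 (SE 0.35). The arrays differed here, with 8 of the 17 genes called lower in array 1 alone and 1 in array 2 alone, and median differences of -1.68 in array 1 and -0.06 in array 2.

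Genes of the S-shaped body and renal vesicle went in both directions, with 3 of 15 higher and 3 lower, beside 9.14% and 6.08% of all genes. Jag1, the Notch ligand of the nephron, had levels of 10.30 and 12.26 in proximal tubule and 12.04 to 15.25 (median 13.38) in the others, a difference of -2.38 (SE 0.53, adjusted p = 0.00146). Wnt4, the inducer of nephron epithelia, had 6.43 and 10.62 in proximal tubule against 9.16 to 14.14 (median 12.36), a difference of -3.63 (SE 0.90, adjusted p = 0.00427). For both genes array 1 lay below the others and array 2 among them. Bmp2, a growth factor, fell by 2.41 (SE 0.69). Cdh6, a cadherin of the early proximal tubule, rose by 2.13 (SE 0.75), Irx1, a nephron patterning factor, by 1.82 (SE 0.64) and Clec18a, a lectin-domain gene, by 2.49 (SE 0.75).

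Most markers of the other components and cells were not called, beside 6.08% of all genes that fell and 9.14% that rose. Of 12 podocyte genes 4 fell, among them Wt1 by 2.02 (SE 0.54) and Ptpro, a phosphatase of podocytes, with 5.78 and 10.32 in proximal tubule against 7.05 to 16.47 and a difference of -4.02 (SE 0.87). Of 17 ureteric genes, Elf5, Gata3 and Upk3a fell and Aqp3 rose, by 2.15 (SE 0.70). Elf5, a factor of the collecting duct, had 5.46 and 6.27 in proximal tubule against 5.33 to 14.00, a difference of -3.29 (SE 0.66, adjusted p = 0.000447). Both of its proximal tubule values were near the floor of the scale. Against single components, 5 ureteric genes were lower than in the ureteric tip and 8 than in the collecting duct, beside 5.09% and 4.35% of all genes. In the interstitium comparison 1 was lower, and none was lower than in the S-shaped body or renal corpuscle. In the other direction, 3 were higher than in the S-shaped body, 3 than in the renal corpuscle and 2 than in the interstitium. The shares of all genes for these were 5.64%, 8% and 8.82%. None of 15 endothelial, 12 nephron progenitor and 6 erythroid genes was called, while Csf1r was the only one of 10 macrophage genes that rose (2.95, SE 1.05). Of 18 interstitial genes only Tcf21 was called (-1.98, SE 0.57). The mean level of the interstitial list was 11.45 and 12.09 in the proximal tubule arrays, within 10.05 to 13.78 for the others, and the collagen genes Col1a2 and Col3a1 were at 13.82 to 15.51 in both arrays. In pooled tissue, fewer cells of a type and less RNA per cell cannot be told apart, and the part of interstitial RNA in the results was not tested.

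The largest falls were in genes of varied roles, and their size depended on the probe set. Thoc2, a subunit of an mRNA export complex, had levels of 7.27 and 6.12 in proximal tubule and 10.66 to 14.65 (median 13.61) in the others, a difference of -6.88 (SE 0.75, adjusted p = 3.71e-08). Its 2 other probe sets also fell, by less, with differences of -2.91 and -1.97. Nfia, a transcription factor of the developing ureter and kidney, had 7.48 and 8.27 in proximal tubule against 11.58 to 15.46 (median 14.17), a difference of -6.14 (SE 0.51, adjusted p = 4.55e-10). In the 17 earlier arrays, from E11.5 and E12.5, Nfia was also low, at 5.96 to 8.05. Of its 4 other probe sets 1 fell, and their differences ran from -1.40 to 1.14. Dach1, a developmental transcription cofactor, had 8.67 and 6.71 in proximal tubule against 11.71 to 14.83 (median 13.66), a difference of -5.77 (SE 0.65), and its 2 other probe sets fell by 2.52 and by 2.89. Gopc, Rpe, Zfp36l2, Dkk3, Zfp148 and Limch1 fell by 4.88 to 6.11, but none of their other probe sets fell and that of Zfp36l2 rose, by 1.47. With arrays scaled to a common median the difference of Zfp148 was 0.77. Thoc2l fell by 5.13 and had no other probe set. Over all falls, 646 genes had another probe set and 248 of these (38.4%) had one that fell as well, against 234 of 546 (42.9%) for rises, while 7 falls and 14 rises had one that went the other way. For 130 of the 318 falls below all 18 others, the proximal tubule mean was within the range of the 17 earlier arrays.

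Each array was also fitted without the other. Array 1 alone had 1152 genes called higher (7.33%) and 971 lower (6.18%), and array 2 alone had 723 higher (4.6%) and 606 lower (3.86%), both against the same 18 arrays, with the lone array assumed to vary like the other groups. Of the 1436 rises from both arrays, 839 were called in array 1 alone and 551 in array 2 alone, and of the 955 falls, 528 and 384. Of the 96 proximal tubule list members, 68 were called higher in array 1 alone and 53 in array 2 alone. Their median differences were 4.04 in array 1 and 2.52 in array 2. Levels differed by at least 2 between the arrays in 3084 genes, 1509 higher in array 1 and 1575 higher in array 2. In the 24 replicate pairs of the other components this count ran from 331 to 3883 genes.

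The genes that set array 1 apart included plasma proteins of the liver and yolk sac. Fgb, the fibrinogen beta chain, had a level of 15.49 in array 1 and 5.34 in array 2, against 5.33 to 9.28 (median 5.44) in the others. Apoa4, an apolipoprotein, had 15.76 in array 1 and 6.31 in array 2, against 5.80 to 8.21. Both genes were picked among those with array 1 above all 18 others and array 2 inside their range. The calls of both (differences of 4.59 and 4.34) came from array 1. A list of 16 measured hepatocyte and plasma protein genes, written after these genes had been seen, had a mean level of 13.74 in array 1, 8.10 in array 2 and 6.82 to 9.68 in the 18 others. Of the 16, 13 rose with both arrays fitted, beside 9.14% of all genes. Against each of the 5 components 7 rose, beside 2.74% of all genes. The median difference of the 16 was 6.33 with array 1 alone and 0.14 with array 2 alone. Afp, alpha-fetoprotein, was high in both arrays, at 16.63 and 15.47 against 5.18 to 15.02 (median 10.45), and Ttr, transthyretin, at 16.34 and 12.63 against 5.23 to 11.29. A list of 9 measured interferon-response genes, also written after the data were seen, had mean levels of 10.89 in array 1 and 7.86 in array 2, against 7.28 to 8.64. Its member Ifit1 had 13.48 in array 1 and 6.21 in array 2. The part of liver RNA in the differences of array 1 was not tested.

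For array 2, genes were picked where it lay above all 18 others and array 1 lay inside their range. Of these, the 10 with the largest excess in array 2 were Isl1, Csnk2a2, Chst2, Syt7, Fap, Doc2b, Nwd2, Pvt1, Trpc2 and Gdnf, which belong to no one list. Gdnf, the ligand from nephron progenitors that drives ureteric branching, had a level of 8.26 in array 1 and 13.57 in array 2, against 5.41 to 12.52 (median 10.75) in the others. Six2, the defining factor of the nephron progenitor, had 8.52 in array 1 and 13.09 in array 2, against 7.93 to 11.81 (median 9.71). Gdnf was picked for array 2 above all 18 others and array 1 inside their range. Six2, named after its values were seen, had the same pattern. The 12 nephron progenitor genes averaged 9.18 in array 1 and 10.76 in array 2, with at most 11.51 in the others, and array 2 was above array 1 by at least 1 for 7 of them, beside 25.1% of all genes. In array 2 alone 1 of the 12 was called higher, and in array 1 alone none was. The cell cycle list averaged 11.11 in array 1 and 12.56 in array 2, with 11.45 to 13.71 in the others. Isl1, a homeobox factor, had 5.68 in array 1 and 11.93 in array 2, against 5.31 to 9.97. The part of neighbouring progenitor tissue in array 2 was not tested.

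**Figure D4:**
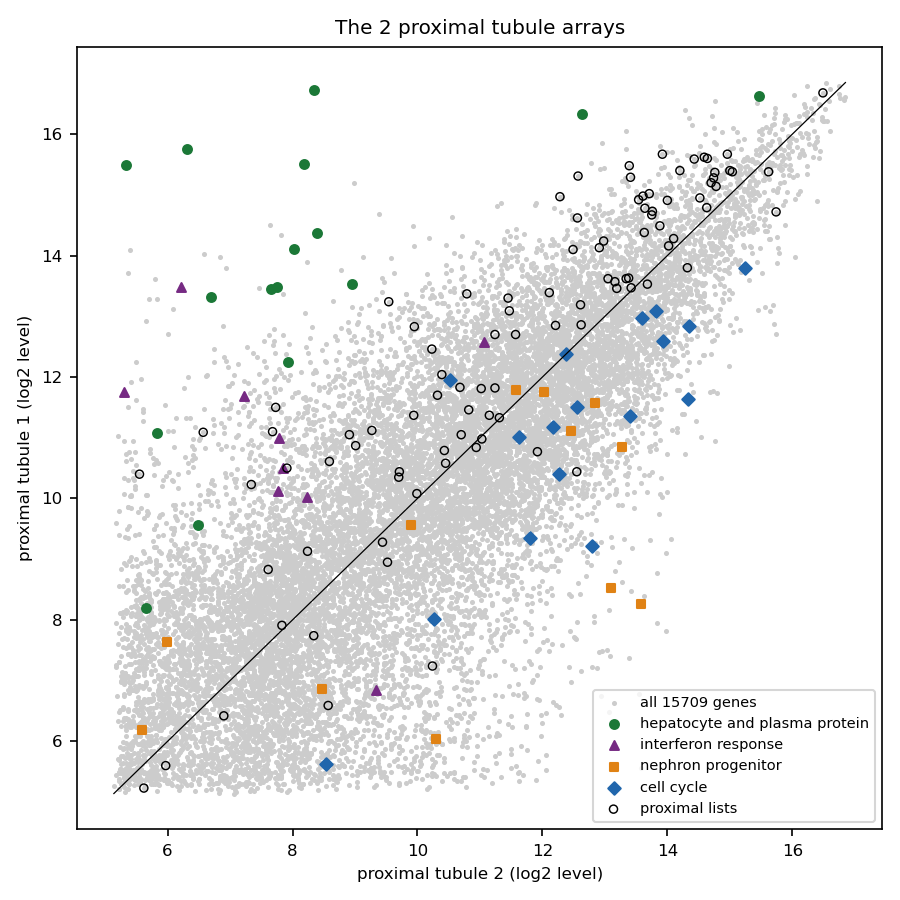
Each point is 1 of 15709 genes, with its log2 level in proximal tubule array 2 on the x axis and in array 1 on the y axis; the line marks equal levels. Hepatocyte and plasma protein genes (green) lie far above the line, most cell cycle genes (blue diamonds) and several nephron progenitor genes (orange squares) below it, and most proximal list members (open circles) near or above it at the upper right.

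**Figure D5:**
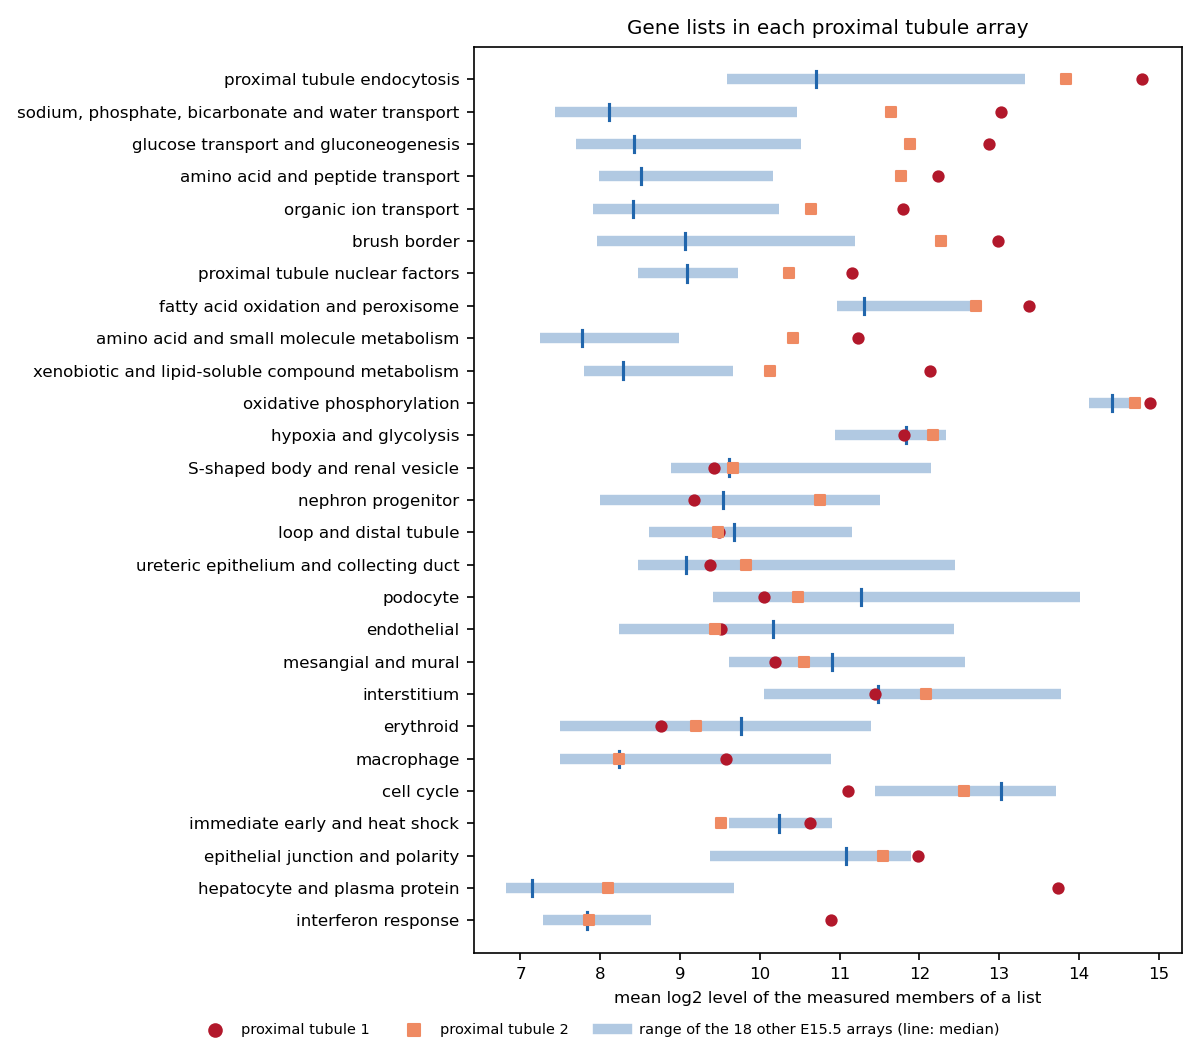
Mean log2 level of the measured members of 27 gene lists in proximal tubule array 1 (dark red circles) and array 2 (orange squares), beside the range of the 18 other E15.5 arrays (blue bars, with a line at the median). Both arrays lie to the right of the bars for the 7 proximal tubule lists and for amino acid metabolism, xenobiotic metabolism and oxidative phosphorylation, while for the hepatocyte list (13.74) and the interferon list (10.89) array 1 does and array 2 does not.

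Against single components, the S-shaped body gave the fewest differences and the interstitium the most. Proximal tubule had 886 genes called higher (5.64%) and 671 lower (4.27%) against the S-shaped body. The renal corpuscle, which shares a precursor with the tubule, came with more. Against it 1257 were higher (8%) and 775 lower (4.93%). Against the ureteric tip 1202 were higher (7.65%) and 799 lower (5.09%), and against the medullary collecting duct 937 (5.96%) and 684 (4.35%). The interstitium is not an epithelium. Against it 1385 were higher (8.82%) and 1068 lower (6.8%). These comparisons share the proximal tubule arrays, and the differences between the counts were not tested. The ureteric tip and collecting duct had 3 arrays and the other components 4, which also affects the counts. The S-shaped bodies include array 3, whose label is in doubt. Of the 96 proximal tubule list members, 58 rose against the S-shaped body, 66 against the renal corpuscle, 68 against the ureteric tip, 65 against the collecting duct and 72 against the interstitium.

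A total of 430 genes (2.74%) rose against each of the 5 components, among them 49 of the 96 list members. For 374 of the 430 both arrays also lay above all 18 others. The component with the next highest mean was the S-shaped body for 176 of the 430 genes (40.9%), the renal corpuscle for 86 (20%), the interstitium for 76 (17.7%), the collecting duct for 50 (11.6%) and the ureteric tip for 42 (9.77%). Without the array labelled S-shaped body 3, whose label is in doubt and which was the highest of the 18 on all 7 lists, the S-shaped body came next for 121 genes (28.1%), the renal corpuscle for 106 (24.7%) and the interstitium for 92 (21.4%). Cubn was an example of the first kind, with a mean of 15.01 ± 0.82 (SD, n = 2) in proximal tubule and 8.62 in S-shaped bodies. Ugt2b37 had its smallest difference of the 5 at 7.69, against the S-shaped body. Hnf4a and Slc2a2 rose against the mean of the 5 but were not called against each, since the S-shaped bodies averaged 12.55 and 11.90.

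Set against the 3 earlier components, renal vesicle, metanephric mesenchyme and ureteric bud, proximal tubule had 1458 genes called higher (9.28%) and 1342 lower (8.54%). Of the 96 proximal tubule list members 74 rose here too, with a median difference of 3.51. This comparison and the main one share the proximal tubule arrays. Slc34a1 ranged from 5.78 to 8.64 and Cubn from 5.66 to 9.23 in the earlier arrays, below both proximal tubule arrays. Day and component cannot be told apart in this comparison, since no component was sampled on more than 1 day.

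A control ratio of RNA quality and the sample codes moved with the groups. The log2 ratio of the 5′ to the 3′ control probe set of Actb was -3.43 and -4.59 in proximal tubule, lower than in the 18 other E15.5 arrays (-3.07 to -1.35) and within or near the 17 earlier arrays (-5.16 to -3.45). The same ratio of Gapdh was -5.30 and -5.61 in proximal tubule, inside the range of the 18 others (-5.81 to -3.11). With the ratio of Actb as a covariate, 727 genes were called higher and 456 lower, and 55 of the 96 list members rose. A code in the titles, whose meaning the labels do not give, was shared by array 1 with E11.5 arrays only and by array 2 with 4 E15.5 arrays of other components. As a fixed term the code therefore leaves array 1 without weight in the comparison, and the proximal tubule side then rests on array 2 alone. Arrays without a code, among them renal corpuscle 4 and medullary interstitium 2, had a term each and so no weight either. The part of these losses in the counts was not tested. With the code as a fixed term, 122 genes were called higher and 205 lower, 16 of the 96 list members rose and their median difference was 2.76. Set directly against those 4 arrays, without a test, array 2 stood above all 4 for 77 of the 96 list members and for 5073 of all genes (32.3%). It was higher by at least 1 for 3486 genes (22.2%) and lower by at least 1 for 2750 (17.5%), and the part of RNA quality in the calls was not tested.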

How the data were processed

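The 37 laser-captured or dissected mouse kidney samples were each hybridised to an Affymetrix array. Per the labels and the submitters' processing notes, the authors computed the deposited signal intensity with GCOS (version not given), and the 2% trimmed mean of every deposited column was 1500 when checked, a linear scale. Of 45101 probe sets, 64 were controls, 34958 had 1 gene, 932 several and 9147 none; 34754 symbols matched RefSeq. An offset of 34.62 (the 20th percentile) was added, log2 taken and arrays quantile normalized. Probe sets above the pooled median (7.89) in 2 or more arrays were kept, and the one with the highest mean stood for its gene, giving 15709 genes. The offset shrinks differences of weak genes. Limma 3.58.1 in R 4.3.3 fitted 1 mean per component to all 37 arrays (28 residual degrees of freedom, median prior 7.35) with Benjamini-Hochberg adjustment over all genes. The fit was also run on simulated arrays in which the spread of a gene was the same in every component. Such data cannot show how the fit behaves where the spread differs between components. The precision is limited by the number of arrays, 2 for proximal tubule. Named are members of the lists, the largest rises and falls without overlap, and genes that differ strongly between the 2 proximal tubule arrays. The last were ranked only where the higher array lay above the 18 other E15.5 arrays and the lower array lay inside their range. Genes without a descriptive symbol were skipped in these rankings. The members and lists were chosen with earlier results of these data known. Six2, Jag1, Cdh6, Irx1, Upk3a, Wt1, Col1a2, Col3a1 and the hepatocyte and interferon genes were named after their values were seen. Alternatives changed the offset, scaling, filter, probe set, weights, arrays fitted, title codes and numbers, or left arrays out. Some listed genes and a motif search are not reported here.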

Additional observations from a re-analysis of the deposited data

Results flagged for a closer look

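Of 81 levels of gene lists in components with 4 arrays, 12 had 1 array whose gap to the nearest other array, as a share of the component's range, was above Dixon's critical value. Chance gives about 1 such array in 20. The arrays concerned belong to the components that the proximal tubule was compared with.

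The array labelled medullary interstitium 1 was high for 4 lists. Amino acid and small molecule metabolism had a mean log2 level of 8.74 there, and 7.93 to 8.03 in the other 3 interstitium arrays. Xenobiotic metabolism had 9.25, and 8.21 to 8.39 in the others. Oxidative phosphorylation had 14.55, and 14.15 to 14.21 in the others. The hepatocyte and plasma protein list had 9.68, and 6.96 to 7.15 in the others.

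The array labelled renal corpuscle 4 had 11.74 for the S-shaped body and renal vesicle list, while the other 3 corpuscles had 8.90 to 9.35. Its level of the hypoxia and glycolysis list was 10.94, and 12.09 to 12.22 in the others. In renal corpuscle 2 the nephron progenitor list had 11.51, and 8.98 to 9.30 in the others.

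The array labelled S-shaped body 3 was apart for 5 lists. The S-shaped body and renal vesicle list had 9.46 there, and 11.72 to 12.15 in the other 3 S-shaped bodies. The podocyte list had 13.83, and 11.37 to 11.79 in the others. The glucose list had 10.52 (8.58 to 8.73 in the others), amino acid metabolism 8.99 (7.63 to 7.75) and the loop and distal tubule list 11.15 (10.04 to 10.12).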

How the results depend on the processing

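The counts of calls depended on how the spread was estimated and on proximal tubule 1. The cause was not tested for any change below, except that fewer arrays were fitted where this is said. The title code as a fixed term also leaves proximal tubule 1 without weight, since no other E15.5 array has its code. Arrays without a code lost their weight in that fit too. Counts are genes called higher, called lower, and called higher than in each of the 5 other components, which were 1436, 955 and 430. With array weights (0.35 for both proximal tubule arrays, 0.25 to 5.94 over all) they were 411, 253 and 150. With only the 20 arrays of E15.5 fitted they were 892, 613 and 250. With the title code as a fixed term they were 122, 205 and 6, and 16 of the 96 proximal list members were called higher, against 74. With the code as a random block, whose correlation was 0.06, 75 members were called. With the 5′ to 3′ ratio of Actb as a covariate, chosen after seeing the data, the counts were 727, 456 and 240. The other planned changes of offset, scaling, filter, probe set and weighting of components kept each of these counts within 1.5 times. Leaving out 1 array at a time gave 723 to 1584 genes called higher, 606 to 1066 lower and 212 to 480 higher than in each component, with 53 to 78 list members. Without proximal tubule 1 the counts were 723, 606 and 212, and no other single array moved them by over 1.5 times.

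The title number as a replicate block could be fitted to the 18 numbered E15.5 arrays only and gave 545, 351 and 103, with 55 list members. The same arrays without the number, a counterpart chosen after seeing the data, gave 920, 629 and 239. Across genes, the deviations of 22 pairs with the same number from their component means correlated by -0.216 to 0.139 (median -0.011), and those of 80 pairs with different numbers by a median of 0.000, so the numbers were not taken to pair the samples.

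Of 132 genes named here, 97 were called, and 84 of these had a value under all 37 alternatives. Of the 84, 18 kept the call under all 37 and 43, these included, under all but the title code as a fixed term. Over the 97, that term ended 66 calls and turned 4, while array weights ended 30, the replicate block 26, the Actb ratio 23, proximal tubule 1 left out 32 and proximal tubule 2 left out 10. Any other single array left out ended 0 to 6. The calls lost most often were those of Gata3 (26 alternatives), Irx1 (23), Csf1r (22), Cdh6 and Cgn (18 each), Mki67 (15) and Acadvl (13). Some log2 differences changed sign. With the title code as a fixed term Apoa4 had -0.60, Fgb -1.66, Ifit1 -0.56 and Wt1 0.38. Without one array at a time Apoa4 ran from -0.39 to 9.06, Fgb from -0.49 to 9.66 and Ifit1 from -0.74 to 6.53, each lowest without proximal tubule 1. Dpys had -0.08 with no filter and Zfp148 0.77 with scaling to a common median. Ocrl had -2.98 and Slc6a6 -3.73 with the probe set of largest variance. Set against the 3 earlier components, an addition made after seeing the data, Nfia had 0.86, Ptpro 0.78, Tcf21 0.16 and Upk3a 0.08. With 2 proximal tubule arrays, differences of moderate size can miss the threshold, and signals near the floor of the scale carry no order.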
